A study of Mus musculus with 30 samples.

Results

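The genes of 10 ETS transcription factors expressed in blood cells were examined for peaks of UTX and Menin in mouse leukaemia cells. They are Spi1, Elf1, Elf2, Elf4, Ets1, Ets2, Fli1, Erg, Etv6 and Gabpa, chosen by name out of 21887 protein-coding genes of the RefSeq annotation (GRCm38.p6, the assembly of mm10). All 10 were found in that table. A peak was assigned to a gene when its summit, the position of highest signal, lay inside the gene or within 5 kb of it. By that rule 8 of the genes had a UTX peak in MI-503 and 0 in DMSO. For Menin, 0 of the genes had a peak in MI-503 and 9 in DMSO.

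ETS factors share a DNA-binding domain that recognises a GGAA core, and the members expressed in blood direct stem cell maintenance and the choice between myeloid, lymphoid and megakaryocytic fates. PU.1, the product of Spi1, is required for myeloid and B cell development, and lowered PU.1 activity is a known feature of some myeloid leukaemias. PU.1 activity was not examined in the cells studied here. Menin, the product of Men1, tethers the MLL1 and MLL2 histone H3 lysine 4 methyltransferases to chromatin, whereas UTX, the product of Kdm6a, removes methyl groups from histone H3 lysine 27 and works with MLL3 and MLL4.

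All 4 libraries analysed here came from WT-MA9, an acute myeloid leukaemia line of mouse cells. In that line the MLL-AF9 fusion is stably expressed from the retroviral vector pMSCV-MLL-AF9-GFP, in treated and vehicle cells alike. The cells were cultured with IL3, IL6 and SCF and collected 4 days after addition of MI-503, a small-molecule inhibitor of the Menin-MLL interaction, or of DMSO, its vehicle. The 4 groups were UTX in MI-503, UTX in DMSO, Menin in MI-503 and Menin in DMSO, each a single chromatin immunoprecipitation library without a replicate. Differences between them therefore have no replicate check, and no p-value is given. Of 30 libraries described, 26 were not analysed here. Peak lists hold no expression values, so the identity of the cells was not checked against marker genes.

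The UTX lists held 14231 peaks in MI-503 and 217 in DMSO, and the Menin lists held 8 peaks in MI-503 and 11195 in DMSO. With both antibodies the short list came from the library that was deeper relative to its input. Signal heights recovered from the deposited values put UTX in MI-503 at no more than the reads of its input and UTX in DMSO at 1.14 times that input. They put Menin in MI-503 at 1.35 times its input and Menin in DMSO at no more than that input. Peak widths differed as well, which further limits comparing the lists. The median width was 264 bp for UTX in MI-503 and 144 bp in DMSO. For Menin it was 70 bp in MI-503 and 272 bp in DMSO. The narrowest peak had 179 bp in both long lists, 127 bp for UTX in DMSO and 62 bp for Menin in MI-503. What caused the differences between the lists was not tested. Among all protein-coding genes, 48.3% had a UTX peak in MI-503 by the same rule, 1.07% had one in DMSO, 0.0183% had a Menin peak in MI-503 and 42.9% had one in DMSO. The counts of 0 of 10 for UTX in DMSO and for Menin in MI-503 are near these shares, and nothing particular to ETS genes is read from them.

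The counts of 8 of 10 members (UTX, MI-503) and 9 of 10 (Menin, DMSO) lie above those shares. No test was made, because the genes were named with results of these libraries known. Long genes offer more room for a peak, and the members run from 18.6 kb (Ets2) to 234 kb (Etv6). Among genes of under 20 kb the shares with a peak were 41.3% (UTX, MI-503) and 36.4% (Menin, DMSO), and among those of 20 to 60 kb they were 57.4% and 51.5% in the same order. They were 59.0% and 51.5% among genes of 60 to 150 kb, and 48.5% and 44.3% among genes of 150 kb or more. Both proteins had a peak at 7 of the 10 members, against 38.0% of all genes. Fli1 had UTX alone, as did 10.3% of all genes, and Elf4 and Erg had Menin alone, as did 4.84%.

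Sequence before the annotated start is shown for 5 start sites. Of these, 4 carry a summit within the printed stretch and the last, at Erg, carries none within 1 kb. The first start of Elf2 also has summits within its stretch, 218 and 142 bp before it, and is not printed. Each stretch is the 250 bases before the start from RefSeq (GRCm38.p6), written 5′ to 3′ on the strand of the gene. Capitals mark matches to CCGGAAG or AGGAAG, which are ETS-type motifs, and to CCAAT, the box bound by NF-Y, on either strand.
Elf1, first start (chr14:79480944-79481193, plus strand): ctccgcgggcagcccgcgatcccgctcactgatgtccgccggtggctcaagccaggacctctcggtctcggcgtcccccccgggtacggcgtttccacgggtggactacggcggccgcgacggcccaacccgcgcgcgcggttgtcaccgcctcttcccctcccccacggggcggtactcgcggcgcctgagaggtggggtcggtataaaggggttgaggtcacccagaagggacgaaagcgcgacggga
Elf4, second start (chrX:48454320-48454569, minus strand): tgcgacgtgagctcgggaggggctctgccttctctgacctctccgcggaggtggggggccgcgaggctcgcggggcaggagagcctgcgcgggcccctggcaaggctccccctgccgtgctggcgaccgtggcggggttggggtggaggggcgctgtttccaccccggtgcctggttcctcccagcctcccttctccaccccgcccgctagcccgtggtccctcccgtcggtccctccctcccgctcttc
Ets2 (chr16:95702157-95702406, plus strand): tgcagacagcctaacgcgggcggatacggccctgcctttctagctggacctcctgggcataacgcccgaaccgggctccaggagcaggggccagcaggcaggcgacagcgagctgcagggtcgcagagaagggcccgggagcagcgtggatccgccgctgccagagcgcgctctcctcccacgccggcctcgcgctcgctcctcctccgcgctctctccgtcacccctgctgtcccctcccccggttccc
Gabpa (chr16:84834874-84835123, plus strand): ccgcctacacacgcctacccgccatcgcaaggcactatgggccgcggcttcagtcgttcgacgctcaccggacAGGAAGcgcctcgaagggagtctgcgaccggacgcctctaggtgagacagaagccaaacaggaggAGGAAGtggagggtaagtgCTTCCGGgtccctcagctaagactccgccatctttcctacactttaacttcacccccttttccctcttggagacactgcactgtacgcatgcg
Erg, first start (chr16:95586594-95586843, minus strand): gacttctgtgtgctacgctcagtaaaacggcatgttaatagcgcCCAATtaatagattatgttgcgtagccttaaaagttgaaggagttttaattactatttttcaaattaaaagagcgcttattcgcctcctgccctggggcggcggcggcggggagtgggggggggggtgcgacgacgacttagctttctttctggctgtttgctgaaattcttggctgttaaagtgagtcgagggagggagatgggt

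The 5 stretches differ in how rich they are in CpG dinucleotides. The Elf1 stretch holds 35 CpG, the Ets2 stretch 25, the Elf4 stretch 23, the Gabpa stretch 19 and the Erg stretch 14, where the median of 32851 RefSeq windows of that length is 6. Of the 12 annotated start windows of members, 6 had a summit of either protein within 1 kb and held 16 to 35 CpG. The other 6, without one, held 2 to 25 CpG. Gabpa alone among the 12 windows held CCGGAAG, on the minus strand from 93 to 87 bases before its start, and that motif occurs in 6.91% of all windows. AGGAAG was found in 4 of the 12 windows, 2 copies of it at Gabpa, and in 29.5% of all windows. CCAAT was found in 3 of the 12 windows, among them the first of Erg and none of those with a summit within 1 kb, and in 33.8% of all windows. No match of one motif overlapped a match of another in these windows. The annotated starts of Spi1, Ets1 and Fli1 were not used here, and their peaks are placed from the ends of the gene.

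Fold enrichment, as the authors' peak caller gave it, is a ratio in which 1 is added both to the fragments over the summit and to the background below them before they are divided. Rank is the place of a peak by −log10 q within its own list. The signal at the summit is also given as the number of read fragments over it, recovered from the deposited values, with an exact Poisson 95% interval that covers counting error only. Fragment numbers and folds of UTX and Menin come from different antibodies and inputs and are not compared with each other. Since the UTX DMSO and Menin MI-503 lists hold no peak at any member, the peaks described next are those of UTX in MI-503 and of Menin in DMSO.

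**Figure D1:**
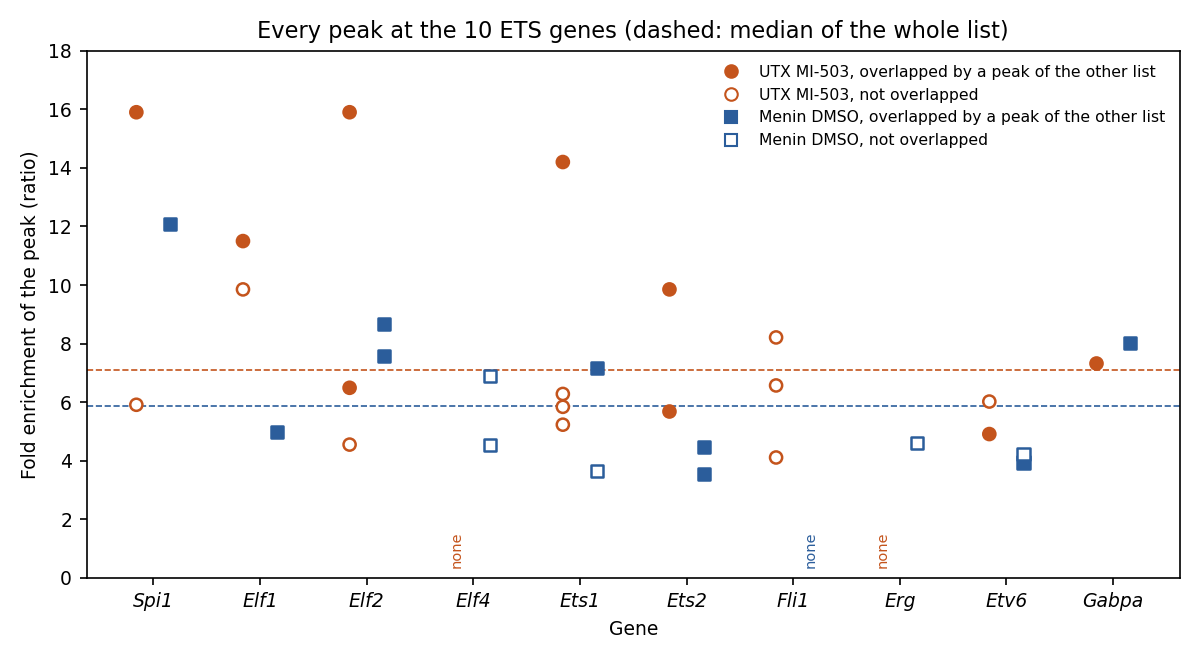
Fold enrichment (ratio, y axis) of every peak at each of the 10 ETS genes (x axis), with UTX MI-503 as orange circles and Menin DMSO as blue squares, filled where a peak of the other list overlaps. Dashed lines are the medians of the whole lists, 7.11 for UTX and 5.87 for Menin. Spi1 and Elf2 share the highest UTX fold, 15.9, and Spi1 has the highest Menin fold, 12.1.

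Spi1 carried the highest Menin peak of the 10 genes and shared the highest UTX peak. The UTX peak (chromosome 2, 91082906 to 91083209) had a fold of 15.9 and rank 1881, with 28 fragments over its summit (18.6 to 40.5). The Menin peak (91082876 to 91083212) had a fold of 12.1 and rank 1687, with 50 fragments (37.1 to 65.9). The summits lay 2 bp apart, 682 and 684 bp inside the low-coordinate end of the gene, so that both proteins had their maximum at one place. A second UTX peak, of 5.91-fold and rank 9999, lay 6949 bp inside the same end with no Menin peak over it. Among all protein-coding genes with a peak, 78.0% had a lower highest UTX fold than Spi1 and 81.3% a lower highest Menin fold. The genes whose highest folds over the 4 lists were closest to those of Spi1 were Rsl1d1 (15.9 for UTX and 12.0 for Menin), Aopep (15.8 and 12.0) and Asb7 (15.8 and 12.2). Their Euclidean distances on the log2 scale were 0.00354, 0.012 and 0.0184, resting on the 2 lists in which these genes have peaks.

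The ELF genes encode activators related to one another in their ETS domain, and they differed in the proteins found. Elf1, which encodes an activator of lymphoid and stem cell genes, had 2 UTX peaks and 1 Menin peak around its first start. The UTX summits lay 155 bp before that start (chromosome 14, 79480909 to 79481179, 11.5-fold, 20 fragments, 12.2 to 30.9) and 716 bp after it (79481756 to 79482094, 9.85-fold, 17 fragments, 9.9 to 27.2). The Menin summit lay 167 bp before the start (79480977 to 79481178) at 4.98-fold, with 17 fragments (9.9 to 27.2). Of the 3 summits, those 155 and 167 bp before the start fall within the Elf1 stretch printed above. Its second annotated start, whose window holds 2 CpG, had no summit within 1 kb. Wbp4, a neighbouring protein-coding gene, has a boundary within 1 kb of all 3 summits, so the peaks cannot be assigned to Elf1 alone.

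Elf2 encodes NERF, which is made from alternative promoters as activating and repressing isoforms. Both UTX and Menin had summits within 1500 bp of each of its 2 annotated starts, but within 1 kb of the first alone. The highest peaks lay inside the gene, past the second start. There the UTX summit lay 1288 bp after the start (chromosome 3, 51276061 to 51276384, 15.9-fold, rank 1881) and the Menin summit 1297 bp after it (51276063 to 51276346, 8.68-fold, rank 3785). The UTX peak had 28 fragments, as at Spi1, on the same background of 0.827 fragments, which is why the 2 peaks tie in rank. At the first start the summits lay 218 bp before it for UTX (6.49-fold, 12 fragments) and 142 bp before it for Menin (7.57-fold, 30 fragments). A further UTX peak, 1257 bp before the first start, had 4.55-fold and 8 fragments (3.45 to 15.8), rank 14007 of 14231.

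Elf4 encodes MEF, a regulator of stem cell quiescence and natural killer cells, and it had Menin peaks but no UTX peak. One Menin summit lay 32 bp before its second annotated start (chromosome X, 48454232 to 48454460, 4.53-fold, rank 8035). The other lay 14402 bp inside the low-coordinate end (48425128 to 48425617, 6.89-fold, rank 5821), and at 490 bp it was the widest of the 14 Menin peaks. Both had 22 fragments (13.8 to 33.3), and their backgrounds were 4.08 fragments beside the second start and 2.34 inside the gene. The first start of Elf4, 8781 bp away from the nearer summit, had none within 1 kb.

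**Figure D2:**
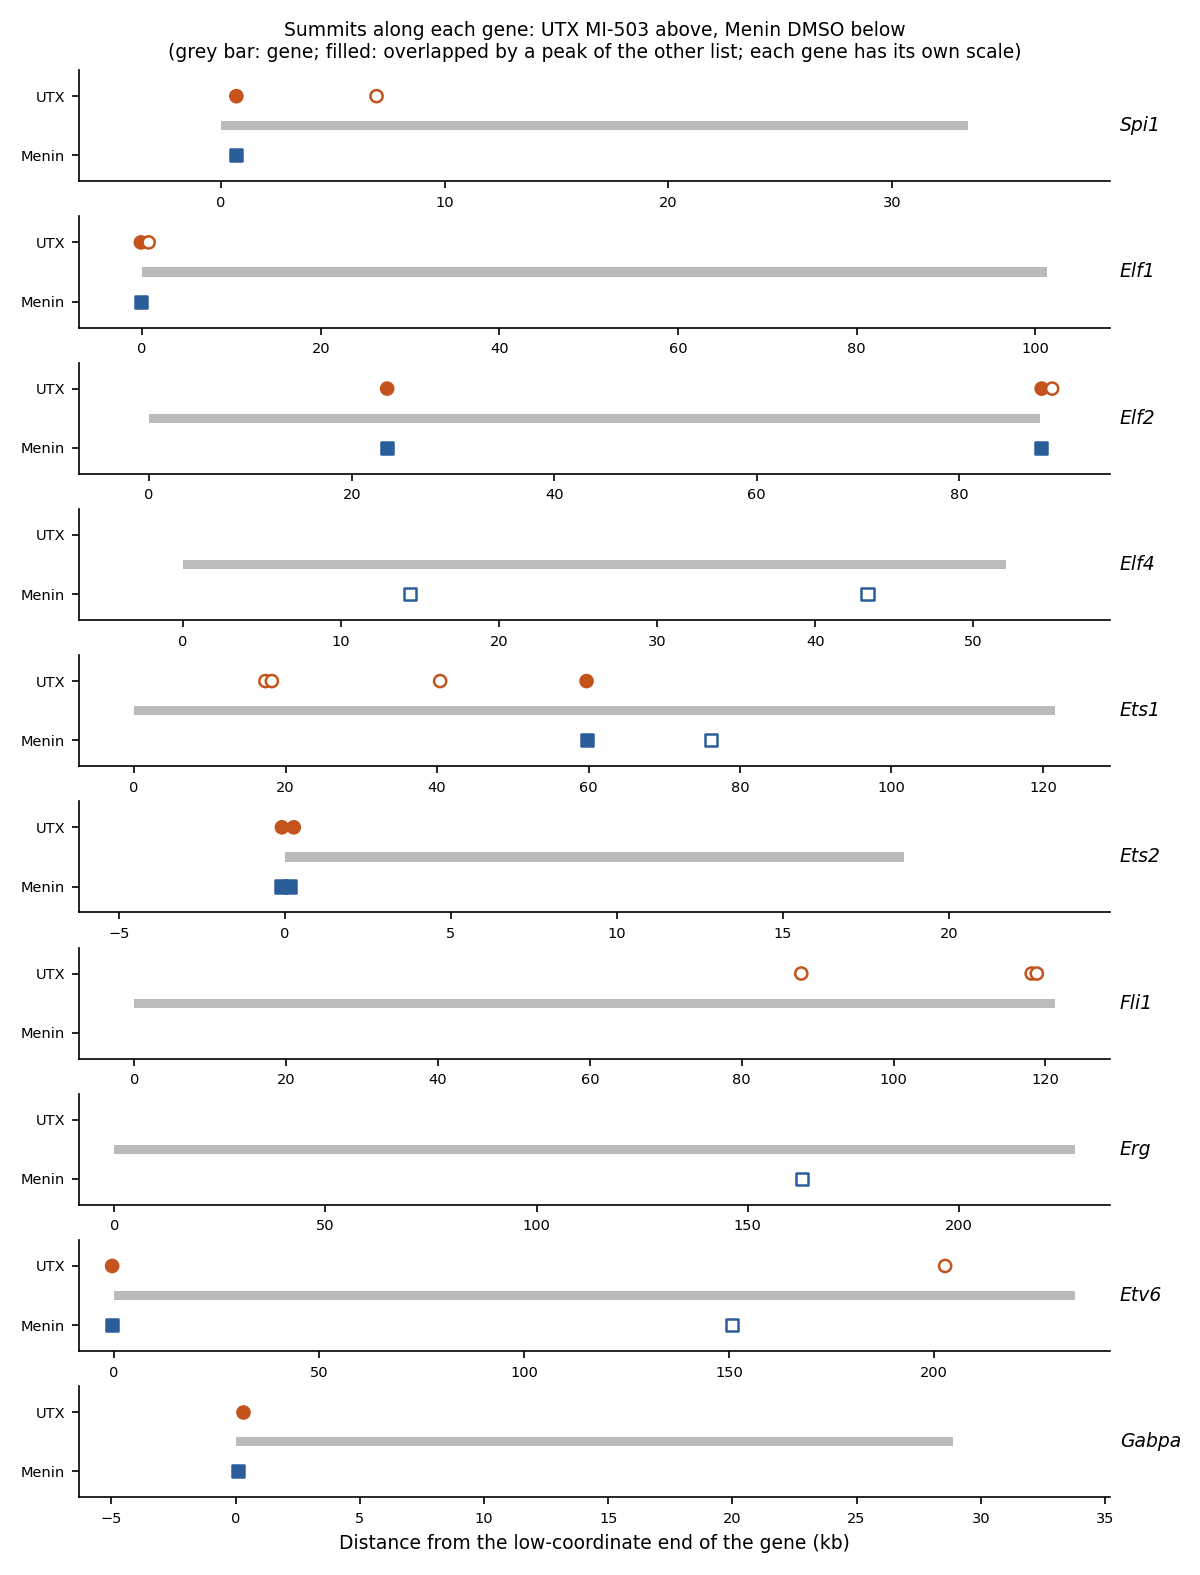
Position of each summit along the 10 genes, as the distance from the low-coordinate end in kb (x axis), with UTX MI-503 above and Menin DMSO below the grey bar of the gene, filled where a peak of the other list overlaps. Each gene has its own scale. The summits of Ets1, Fli1 and Erg all lie over 1 kb inside the gene, whereas Elf1, Ets2 and Gabpa have theirs at one end.

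Ets1 and Ets2 encode the founding members of the family, ETS1 with its best known roles in lymphocytes and ETS2 as a nuclear target of MAP kinase signalling. At Ets1, 122 kb long, all summits lay inside the gene, far from both of its ends. The highest UTX peak (chromosome 9, 32695729 to 32696361, 14.2-fold, rank 2381, 25 fragments, 16.2 to 36.9) and the highest Menin peak (32695857 to 32696231, 7.18-fold, rank 2688, 53 fragments, 39.7 to 69.3) had summits 7 bp apart, 49.1% of the way along the gene. The Menin peak sat on a background of 6.52 fragments, the highest of the 14 Menin peaks. Further UTX peaks stood at 14.3%, 15.0% and 33.2% of the gene's length with 5.84-fold, 5.23-fold and 6.28-fold, and a further Menin peak at 62.7% with 3.65-fold. None of these 4 lay under a peak of the other list, and each had 14 fragments or fewer. No summit lay within 1 kb of either end of Ets1. Its annotated starts were not used, so whether any of these summits lies at a start inside the gene was not examined.

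The peaks of Ets2 flanked its annotated start on both sides. The UTX summits lay 90 bp before the start (chromosome 16, 95702148 to 95702490, 9.85-fold, 17 fragments) and 267 bp after it (95702554 to 95702811, 5.68-fold, 10 fragments). The Menin summits lay 117 bp before the start (95702148 to 95702374, 4.46-fold, 18 fragments) and 163 bp after it (95702474 to 95702676, 3.54-fold, 14 fragments). For both proteins the peak before the start had the higher fold. The counting intervals of the pair overlapped for UTX (9.9 to 27.2 against 4.8 to 18.4) and for Menin (10.7 to 28.4 against 7.65 to 23.5). Overlap of intervals is not a test, and whether the 2 sides differ in height was not tested. The Menin peak after the start ranked 11078 of 11195.

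Fli1 and Erg encode closely related factors needed in stem cells and, for FLI1, in megakaryocytes, and each had peaks of one protein alone. Fli1 had 3 UTX peaks and no Menin peak. The 2 higher ones lay near the high-coordinate end, 2359 bp inside it (chromosome 9, 32540907 to 32541256, 8.21-fold, 14 fragments, 7.65 to 23.5) and 3038 bp inside it (32540312 to 32540491, 6.57-fold, 11 fragments, 5.49 to 19.7). The remaining UTX peak, 33379 bp inside, had 4.11-fold and rank 14200 of 14231, and was the lowest UTX peak of all members. Erg had a single Menin peak (chromosome 16, 95522051 to 95522236, 4.59-fold, rank 8704, 19 fragments, 11.4 to 29.7), 8230 bp after its second annotated start. None of the 3 starts of Erg had a summit within 1 kb. Since a gene enters a list through a threshold, a peak in 1 list alone does not show that the other protein was absent there.

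Etv6 encodes TEL, a repressor and a frequent fusion partner in leukaemia, and it had the lowest highest folds of the members with both proteins. The summits before its start were 373 bp away for UTX (chromosome 6, 134035230 to 134035411, 4.91-fold, 10 fragments, 4.8 to 18.4) and 397 bp away for Menin (134035147 to 134035465, 3.94-fold, 19 fragments, 11.4 to 29.7). Inside the gene a UTX peak of 6.02-fold stood 202727 bp after the start and a Menin peak of 4.23-fold 150708 bp after it, so the peaks inside the gene were at different places. A predicted gene has a boundary within 1 kb of both summits before the start. Among all genes with a peak, 12.9% had a lower highest UTX fold and 9.97% a lower highest Menin fold than Etv6.

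Gabpa encodes the DNA-binding subunit of GABP, which acts with a GABPB partner at promoters of mitochondrial and other housekeeping genes. Its peaks covered its start. The UTX peak (chromosome 16, 84834685 to 84835546) was the widest of the 19 UTX peaks, at 862 bp where the list median is 264 bp, with a fold of 7.33 and 13 fragments (6.92 to 22.2). Its summit lay 50 bp after the start, while the Menin summit (84834832 to 84835070, 8.01-fold, 34 fragments, 23.5 to 47.5) lay 142 bp before it. This was the largest gap, 192 bp, between paired summits at any member. The CCGGAAG match of the printed Gabpa stretch falls between the 2 summits. Atp5j, which encodes a subunit of ATP synthase, has a boundary within 1 kb of both summits, so the peaks cannot be assigned to Gabpa alone.

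**Figure D3:**
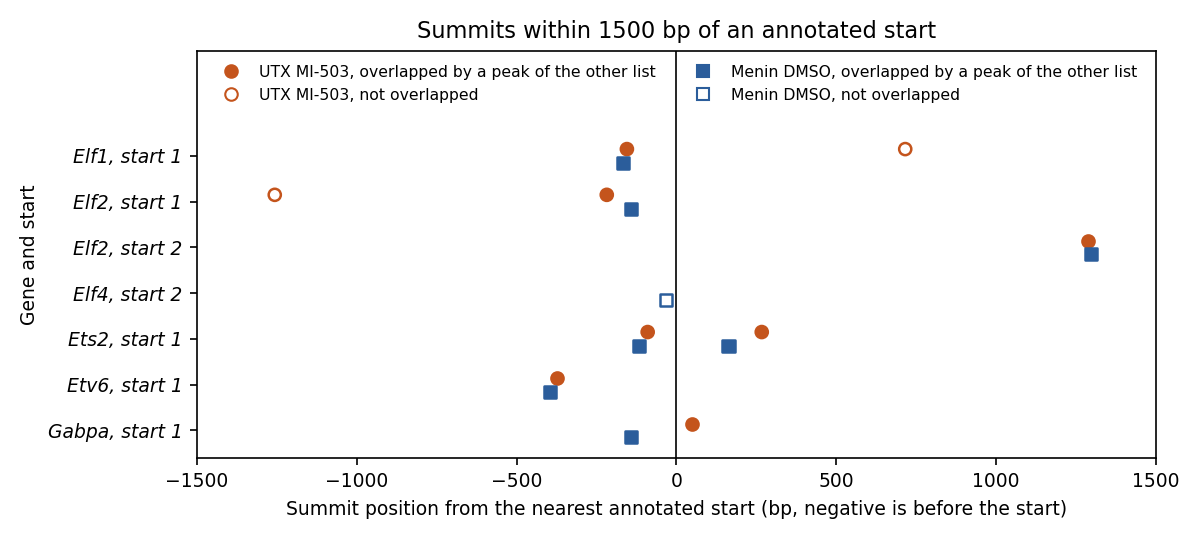
Position of summits within 1500 bp of an annotated start (x axis, bp, negative before the start) for the members with listed starts (y axis), with UTX MI-503 as orange circles and Menin DMSO as blue squares, filled where a peak of the other list overlaps. The first starts of Elf1 and Elf2 and the start of Etv6 each have a UTX and a Menin summit close together before the start. Elf1 and Elf2 each have a further UTX summit without Menin, and those of Ets2 stand on both sides of its start.

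Peaks of UTX and Menin met at 9 places in 7 members, all of them with summits 2 to 192 bp apart and a median of 24 bp. These were 47.4% of the 19 UTX peaks (exact Clopper-Pearson 95% interval 24.4 to 71.1%, for counting error only) and 64.3% of the 14 Menin peaks (35.1 to 87.2%). Over all protein-coding genes, 57.0% of UTX peaks were overlapped by a Menin peak and 72.4% of Menin peaks by a UTX peak, both inside those intervals. Neighbouring peaks are not independent, which the intervals do not take into account. The median fold was 9.85 for UTX peaks under a Menin peak and 5.96 for the others. It was 7.18 for Menin peaks under a UTX peak and 4.53 for the others. The same split over the peaks of all genes is not given, so nothing particular to the members is read from these medians. The UTX and Menin libraries compared here also differ in treatment, so an overlap does not show both proteins in the same cells.

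A summit stood within 1 kb of an annotated start, or of a gene end where no start was used, at 6 members for UTX and at 7 for Menin, against 37.8% and 32.2% of all genes. Spi1, Elf1, Elf2, Ets2, Etv6 and Gabpa had both, and Elf4 had Menin alone. Spi1 is counted through a gene end, because its annotated starts were not used, nor were those of Ets1 and Fli1. Whether the summits of Spi1, Ets1 and Fli1 lie at a start was not examined. For these genes the counts therefore do not show whether a peak stood at a start. Of the 19 UTX peaks, 11 lay over 1 kb from either end of the gene, and of the 14 Menin peaks 7 did. These 7 include the Elf4 peak 32 bp before its second annotated start, which lies inside the gene. The share over the peaks of all genes was not computed, so nothing particular to the members is read from these counts. Nearest to the limit of the rule, a UTX peak lay 1218 bp outside Elf2, and the closest peaks left out were those of the neighbouring gene Sugt1, 5113 bp (UTX) and 5115 bp (Menin) past the end of Elf1.

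**Figure D4:**
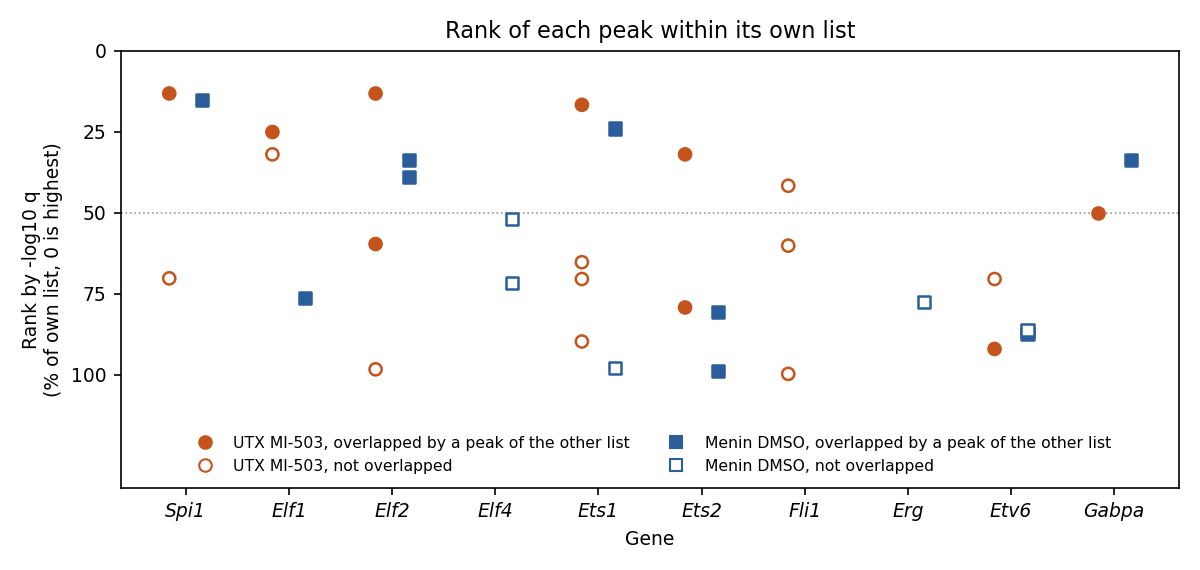
Rank by −log10 q of each peak within its own list, as a percentage of the list (y axis, 0 is the highest peak), for the 10 genes (x axis), with UTX MI-503 as orange circles and Menin DMSO as blue squares, filled where a peak of the other list overlaps. Spi1, Elf2 and Ets1 have UTX peaks in the highest 25%, while 12 of 19 UTX and 9 of 14 Menin peaks are in the lowest 50%.

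More of the members' peaks ranked in the lowest 50% of their lists than in the highest 50%. Of all peaks 50% rank there by definition, the numbers are small, and no test was made. The 19 UTX peaks had folds of 4.11 to 15.9 with a median of 6.49, where the list median was 7.11, and 12 of them ranked in the lowest 50% of the list. The 14 Menin peaks had folds of 3.54 to 12.1 with a median of 4.79, where the list median was 5.87, and 9 ranked in the lowest 50%. In the highest 25% were 3 UTX peaks, at Spi1, Elf2 and Ets1, and 2 Menin peaks, at Spi1 and Ets1. The number of members with a peak depends on how far down the lists are read. With the 5000 highest peaks of each list, 5 members had a UTX peak and 4 a Menin peak, beside 27.1% and 25.4% of all genes.

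Many of the 16 other genes of the ETS family act outside blood, and 9 of them had a UTX peak in MI-503 and 7 a Menin peak in DMSO, 6 having both. These counts are near the shares of all genes, 48.3% for UTX, 42.9% for Menin and 38.0% for both. Etv5, a target of receptor tyrosine kinase signalling and named after its values were seen, had the highest UTX fold of the 16, at 27.4 (rank 299), beside a Menin fold of 6.89. Elk1 (10.4 for UTX and 5.39 for Menin), Elk3 (5.47 and 3.39) and Elk4 (12.2 and 7.25), which encode the ternary complex factors that bind with SRF, had both. Elf5, Etv1 and Etv2, the last a specifier of endothelial and blood progenitors, had UTX alone. The epithelial genes Elf3, Ehf and Spdef, the serotonergic neuron gene Fev, and Spib and Spic, which encode the relatives of PU.1 in B cells and red pulp macrophages, had neither.

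Of 12 partner genes, 10 had a UTX peak in MI-503 and 6 a Menin peak in DMSO, beside 48.3% and 42.9% of all genes. The Menin count is near that share, and the UTX count lies above it, with no test. Gabpb1 (8.02 for UTX and 5.98 for Menin) and Gabpb2 (8.16 and 4.06), which encode the partners of GABPA, had both, as did Runx1 (12.1 and 8.83) and Cbfb. Runx3 and Tal1, which encode haematopoietic regulators that act with ETS factors, had UTX alone. Runx3 was the single gene of the 12 with a UTX peak in DMSO, beside 1.07% of all genes. Its highest fold was 7.34 in MI-503 and 6.4 in DMSO, where the peak ranked 211 of 217. The folds come from single libraries of unlike depth and are not compared. Lmo2 and Irf4 had neither protein.

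Of 10 genes known as targets of PU.1 in myeloid cells, 5 had a UTX peak in MI-503 and 4 a Menin peak in DMSO. Csf2ra (6.68 for UTX and 5.39 for Menin), Csf3r (7.66 and 3.94) and Ncf1 (11.9 and 6.37) had both. Fcgr1 and Btk had UTX alone and Cybb, a subunit of the phagocyte oxidase, Menin alone, at 6.59. Csf1r, Itgam, Cd14 and Lyz2 had neither. These shares are near the background of all genes, 48.3% for UTX and 42.9% for Menin.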

How the data were processed

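Chromatin immunoprecipitation sequencing of UTX and Menin was analysed in 4 WT-MA9 libraries, grouped by the antibody and treatment in their titles. Per the submitters' processing notes peaks were called with MACS2 and the mouse build was mm10. No version, aligner, filter or threshold is stated there or in the labels. Per the peak names in the deposited files, each list was called on 1 library against a vehicle input shared by both treatments of an antibody. The deposited fold was read as a ratio, the signal at the summit plus 1 over the local background plus 1, and the deposited −log10 values are the p-value and q-value at the summit. The deposited score was not used. Each fold and p-value was solved for whole fragments and background, within 0.01 of a step. All 500 peaks tried in the UTX MI-503 and Menin DMSO lists gave whole numbers, 100% of them, against at most 37.6% and 29.0% at another step. In the UTX DMSO list 93.1% of 217 peaks and in the Menin MI-503 list 100% of 8 did so at steps of 0.8745 and 0.742. Absolute depth is unknown. The solver and the gene assignment were tested on simulated data.

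Gene positions came from RefSeq GRCm38.p6, and 7 of the 10 members had starts in the RefSeq promoter windows. Members and lists were chosen with earlier results of these data known. Named were all members with every peak, up to 6 genes with a peak per other list in list order, any gene stated to lack one, genes sharing a member's peak (predicted genes not named), and the 3 genes most like Spi1. Etv5, outside that order, was singled out after its values were seen. Overlap meant 1 bp or more. Alternatives changed the window, the thresholds, the overlap, the start distance and the list length. Python 3.11.15, pandas 2.3.3, numpy 2.4.6, scipy 1.17.1 and matplotlib 3.10.9 were used.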

Additional observations from a re-analysis of the deposited data

How the results depend on the processing

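For reported counts above 0, 35 of 44 recomputed counts stayed within 1.5 times the reported one and 9 did not. The counts of 0, for UTX DMSO and Menin MI-503, were 0 in all 24 alternatives, most of which remove peaks and could give nothing else. With the 5000 highest peaks of a list, 5 members had a UTX MI-503 peak (6 peaks) and 4 a Menin DMSO peak (5 peaks). With a fold of at least 5, 5 members had a Menin DMSO peak (6 peaks). At that fold 3 members had one within 1 kb of a start, or of a gene end where no start was used. Overlapped peaks then numbered 5 in each list. In each case the alternative holds fewer peaks by construction. The list length alternative was not run for the lists of 217 and 8 peaks, which are shorter than it. Windows of 0, 1 and 20 kb left the counts of members and of peaks at members within 1.5 times. The overlap and start counts were not recomputed under other windows. No paired analysis was possible because each condition has 1 library. Depth limits the low peaks most, since at 8 fragments the counting interval is 3.45 to 15.8.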

Other observations

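Further peaks stood 5 to 20 kb outside the members. Past the high-coordinate end of Ets2, a UTX MI-503 peak (chromosome 16, 95728917 to 95729284, 14.7-fold, rank 1980, summit 8011 bp away) and a Menin DMSO peak (95728908 to 95729176, 10.8-fold, rank 548, summit 7954 bp away) overlapped in a place inside no protein-coding gene. Both exceed every peak at Ets2 itself in fold, and the Menin peak ranks above every Menin peak of the 10 genes. Before the low-coordinate end of Spi1, a UTX peak of 6.19-fold and a Menin peak of 7.38-fold had summits 11978 and 11912 bp away, at a boundary of Slc39a13, which encodes a zinc transporter. Below the low-coordinate end of Erg, UTX peaks of 7.59-fold and 6.52-fold lay 9241 and 8785 bp away with no Menin peak, so that with a 20 kb window Erg has both proteins, at different places. The peaks near Elf1 at Sugt1 had 15.9-fold for UTX (rank 1840) and a higher fold for Menin than at Elf1 (rank 1035). These peaks were singled out after their values were seen, and no target gene is assigned to them.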
